A study of Mus musculus with 8 samples.

Results

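The 41 interferon response genes described here are a fixed list of genes known to be induced by interferons, chosen by name, and all 41 were among the 48432 genes listed for these mouse livers. They comprise 4 transcription factors, 3 sensors of foreign RNA, 5 members of the OAS family, 14 IFIT and other antiviral effectors, 3 genes of ISG15 conjugation, 8 interferon-gamma inducible GTPases and 4 genes of antigen processing. The list was made with earlier results of these data known. Its shares are therefore set beside those of all genes as a description, and no test of the list was made. Livers came from wild-type C57BL/6 mice after 30 weeks under 1 of 4 conditions, with 2 RNA-seq libraries each and 8 in all. LL-PM2.5 was constant light with fine particulate matter, LL-FA constant light with filtered air, LD-PM2.5 a light/dark cycle with particulate matter, and LD-FA a light/dark cycle with filtered air. PM2.5 denotes airborne particles fine enough to reach the deep lung. The series asks how polluted air and constant light act on the liver's daily rhythm, and the interferon genes were read out within that design. The labels do not state whether the pair of libraries in a group came from different animals, and p-values may therefore reflect technical spread alone. The hour at which livers were collected is not given in the sources used here.

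Interferons are secreted proteins that cells release when their sensors detect viral or other foreign nucleic acid. Type I interferons signal through a receptor to a complex that contains STAT2 and IRF9 and binds the interferon-stimulated response element (ISRE). Interferon-gamma acts through the gamma-activated site (GAS) and induces IRF1 as an early target. In the liver, hepatocytes, Kupffer cells and endothelium all respond, and the induced proteins include RNA sensors, blockers of viral translation, GTPases that attack vacuoles of intracellular parasites, and the machinery that loads peptides on class I molecules.

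Promoter sequences from RefSeq on GRCm38, 250 bases before to 50 bases after the annotated start, were found for 31 of the 41 genes in 35 windows. None was found for Dhx58, Oas2, Mx1, Mx2, Rtp4, Parp9, Parp14, Usp18, Iigp1 and Tap2, so these genes were not searched for motifs. The ISRE was searched as GAAANNGAAA on one strand or TTTCNNTTTC on the other, and the GAS as TTCNNNGAA, which is its own reverse complement, with overlapping matches kept. An ISRE match lay in 16 of the 31 genes (51.6%), against 3.99% of the 27025 genes with a promoter. By windows the share was 45.7%, against 3.44% of 32851. The 16 were Bst2, Ddx58, Gbp2, Gbp3, Gbp7, Ifih1, Ifit1, Ifit3, Igtp, Irgm1, Irgm2, Isg15, Oas1a, Oas3, Rsad2 and Stat2. A GAS match lay in 9 of the 31 genes (29.0%), against 9.55% of all genes, and in 25.7% of the windows, against 8.3% of all windows. The 9 were Bst2, Gbp7, Ifi35, Ifit2, Igtp, Irf1, Irgm2, Oas1a and Psmb8, and in Bst2 the GAS overlapped an ISRE. A match is a description of the letters and not a measured binding site.

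The 4 windows printed here, 5′ to 3′ on the gene's strand with motif letters in capitals, are shown because Irf1 leads the PM2.5 comparison with a GAS alone, while Isg15, Rsad2 and Irgm1 carry ISREs in different numbers and places. Irf1 (chr11:53769764-53770063, plus strand) holds a single GAS between 90 and 82 bases before the start and no ISRE. Isg15 (chr4:156200769-156201068, minus strand) holds 3 overlapping ISREs between 78 and 57 bases before the start. Rsad2 (chr12:26456403-26456702, minus strand) holds a reverse ISRE between 120 and 111 bases before the start. Irgm1 (chr11:48871371-48871670, minus strand) holds a pair of overlapping ISREs between 30 and 15 bases before the start.
Irf1: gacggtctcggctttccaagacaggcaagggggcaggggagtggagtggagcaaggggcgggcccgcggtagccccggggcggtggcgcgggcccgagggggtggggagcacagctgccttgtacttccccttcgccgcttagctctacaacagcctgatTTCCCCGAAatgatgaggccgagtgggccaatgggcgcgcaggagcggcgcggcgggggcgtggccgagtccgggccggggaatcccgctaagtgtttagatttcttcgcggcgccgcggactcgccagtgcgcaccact
Isg15: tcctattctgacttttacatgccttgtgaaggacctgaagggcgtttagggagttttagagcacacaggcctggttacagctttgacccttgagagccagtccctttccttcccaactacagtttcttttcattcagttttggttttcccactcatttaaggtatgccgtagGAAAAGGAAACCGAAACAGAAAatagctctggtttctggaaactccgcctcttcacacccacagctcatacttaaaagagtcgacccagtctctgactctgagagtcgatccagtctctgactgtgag
Rsad2: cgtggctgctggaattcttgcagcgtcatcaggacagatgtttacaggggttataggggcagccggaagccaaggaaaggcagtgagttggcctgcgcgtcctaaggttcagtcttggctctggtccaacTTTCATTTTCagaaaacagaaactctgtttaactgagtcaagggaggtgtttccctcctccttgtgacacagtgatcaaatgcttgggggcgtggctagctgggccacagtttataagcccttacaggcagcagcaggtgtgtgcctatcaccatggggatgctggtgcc
Irgm1: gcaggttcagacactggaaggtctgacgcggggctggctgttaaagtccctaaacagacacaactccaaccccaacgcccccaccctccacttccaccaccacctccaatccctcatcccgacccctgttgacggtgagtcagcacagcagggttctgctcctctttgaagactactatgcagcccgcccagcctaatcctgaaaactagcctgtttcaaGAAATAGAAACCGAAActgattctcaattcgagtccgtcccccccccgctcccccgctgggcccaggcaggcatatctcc

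Expression is given in FPKM, fragments scaled to transcript length and depth, a level per length that allows genes to be set side by side. The libraries held 22215000 to 31819000 fragments each. The tests covered the 11316 genes that reached 1 FPKM in 2 or more libraries, 36 of the 41 interferon genes among them. Of the 36, 10 averaged 10 FPKM or more over the 8 libraries, 23 averaged between 1 and 10 FPKM, and 3 averaged under 1 FPKM. Bst2 (tetherin, which holds budding virus at the cell surface) had the highest FPKM, with 129 and 175 in LL-PM2.5, 122 and 203 in LL-FA, 135 and 203 in LD-PM2.5, and 187 and 160 in LD-FA. Iigp1, a GTPase that loads onto the vacuoles of parasites, followed with 84.5 and 38.1 FPKM in LL-PM2.5, 61.8 and 44.9 in LL-FA, 122 and 55.9 in LD-PM2.5, and 89.5 and 56.8 in LD-FA. In all 4 groups the first library of Iigp1 lay above the second, and the groups overlapped. The third, Irgm1 (a GTPase of the same family with a role in autophagy), is described with the light comparison.

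The 5 genes below the filter were Oas2 (0.0542 to 0.259 FPKM over the libraries), Oas3 (0.104 to 0.31), Ifit2 (0.452 to 0.813), Mx1 (0.0523 to 0.171) and Ifi44 (0.298 to 0.713). Mx1 rested on 5 to 19 fragments a library and Oas2 on 7 to 35. With the filter removed the edgeR test gave these 5 genes no adjusted p below 0.243, the value for Oas2. C57BL/6 mice carry a nonfunctional Mx1. Among the 36 tested genes the highest library exceeded the lowest by a median of 1.88-fold, against 1.63-fold over all genes tested, and by 3.48-fold at most, in Ifi47.

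**Figure D1:**
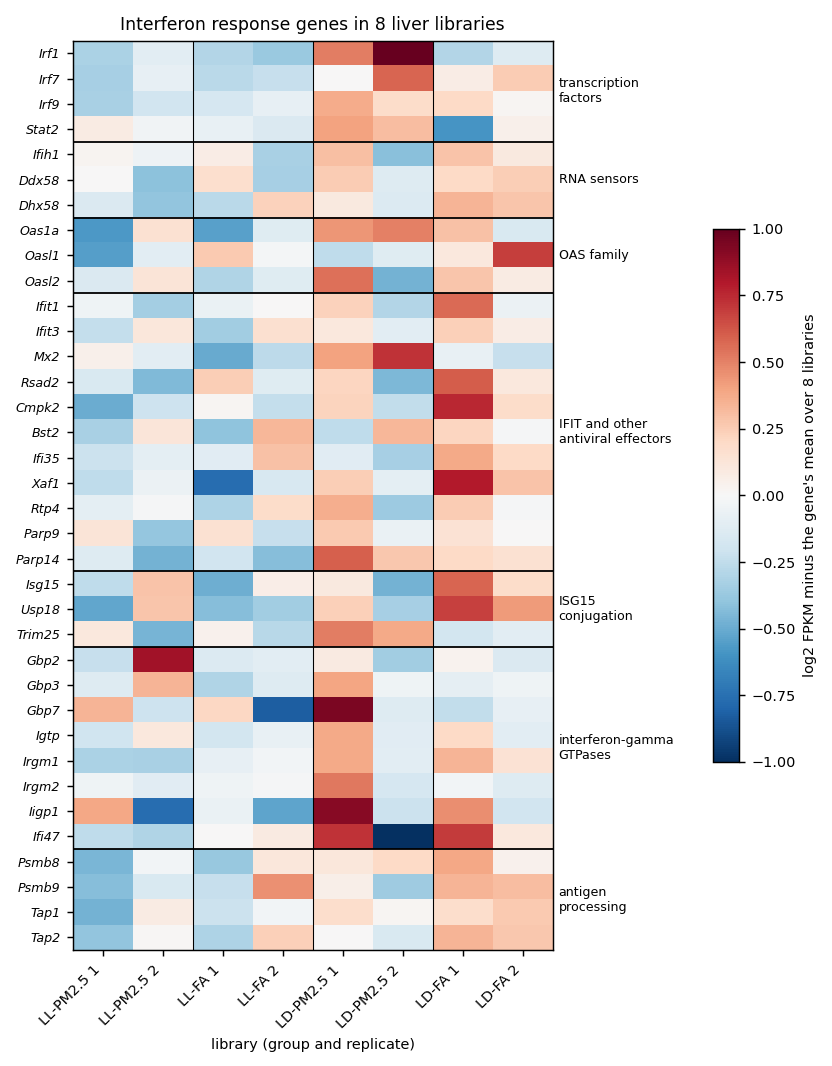
Log2 FPKM of each of the 36 tested interferon genes minus its own mean over the 8 libraries, with genes in rows grouped by role and libraries in columns. The colour scale ends at 1 in both directions. The constant-light libraries on the left are mostly below the genes' means, with medians of -0.27 and -0.04 in LL-PM2.5 and -0.17 and -0.1 in LL-FA, and among the light/dark libraries LD-PM2.5 2 is the one whose median, -0.07, is below the mean.

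Constant light was first set against the light/dark cycle over both airs, 4 libraries against 4. Of the 36 interferon genes, 35 had a lower fitted level in LL than in LD (97.2%), against 48.7% of all genes tested, and their median log2 fold change was -0.25, against 0.0 over all genes. All 4 transcription factors, all 3 RNA sensors, the 3 tested OAS genes, the 11 tested IFIT and other effectors, the 3 genes of ISG15 conjugation and the 4 of antigen processing had negative fold changes, as did 7 of the 8 GTPases. The SE of a single gene had a median of 0.13 in this comparison, which does not measure the spread of the list's median. Between libraries of a group, the median log2 level of the 36 genes varied with a pooled SD of 0.22. The 36 fold changes come from the same libraries and are not independent of each other. None of the 36 passed the edgeR quasi-likelihood test at an adjusted p under 0.05, nor did any of all genes tested (0.0%). At an unadjusted p under 0.05 the edgeR test had 9 of the 36 (25%), all lower in LL, against 5.66% of all genes in either direction and 3.48% lower. DESeq2 called 1 of the 36, Parp14, against 0.813% of all genes, and limma on log2(FPKM + 1) called none.

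Parp14, on chromosome 16 of GRCm38 (35832874 to 35871544, minus strand), encodes a mono-ADP-ribosyltransferase that acts in STAT signalling. It stood at 2.78 and 2.19 FPKM in LL-PM2.5 and 2.66 and 2.26 in LL-FA, against 4.61 and 3.66 in LD-PM2.5 and 3.49 and 3.37 in LD-FA. Every LL library was below every LD library. The means were 2.47 ± 0.291 FPKM in LL and 3.78 ± 0.562 in LD (SD, n = 4 each), with a log2 fold change of -0.61 ± 0.09 (SE) and an edgeR adjusted p of 0.188. DESeq2 gave Parp14 an adjusted p of 0.000237, and without any single library its edgeR log2 fold change lay between -0.64 and -0.56.

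Irf9, the DNA-binding subunit of the type I response complex, was likewise apart, with 7.85 and 8.61 FPKM in LL-PM2.5 and 8.77 and 9.3 in LL-FA, against 12.7 and 11.2 in LD-PM2.5 and 11.3 and 9.96 in LD-FA. Its log2 fold change was -0.38 ± 0.09 with an edgeR adjusted p of 0.545. Irf9 overlaps Rnf31 on the same strand, so fragments of these genes can be shared. Irf7, the regulator that amplifies type I interferon production, had 9.59 and 11.4 FPKM in LL-PM2.5 and 10 and 10.3 in LL-FA, against 12.1 and 18.1 in LD-PM2.5 and 12.7 and 14.4 in LD-FA. The groups did not overlap, and the log2 fold change of Irf7 was -0.41 ± 0.13 (edgeR adjusted p = 0.751). Irf7, Irf9 and Parp14 were the 3 of 36 whose LL libraries all lay below all LD libraries (8.33%), against 1.56% of all genes tested. None of the 36 had all LL libraries above all LD libraries, against 0.68% of all genes.

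Irgm1 had 18.1 and 18.0 FPKM in LL-PM2.5 and 21.3 and 22.1 in LL-FA, against 29.3 and 20.9 in LD-PM2.5 and 28.5 and 24.9 in LD-FA. The second LD-PM2.5 library lay within the LL range, and the log2 fold change was -0.39 ± 0.11 (edgeR adjusted p = 0.651). Irf1, a transcription factor induced early by interferon-gamma, had a log2 fold change of -0.53 ± 0.14 (edgeR adjusted p = 0.602) in the light comparison. Its LD libraries were split by air, as the PM2.5 comparison shows. The exception to the direction of the list, singled out after its values were seen, was the guanylate-binding protein Gbp2, with 1.67 and 3.52 FPKM in LL-PM2.5 and 1.79 and 1.82 in LL-FA, against 2.09 and 1.54 in LD-PM2.5 and 2.01 and 1.78 in LD-FA. The second LL-PM2.5 library alone stood above the other libraries of Gbp2.

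**Figure D2:**
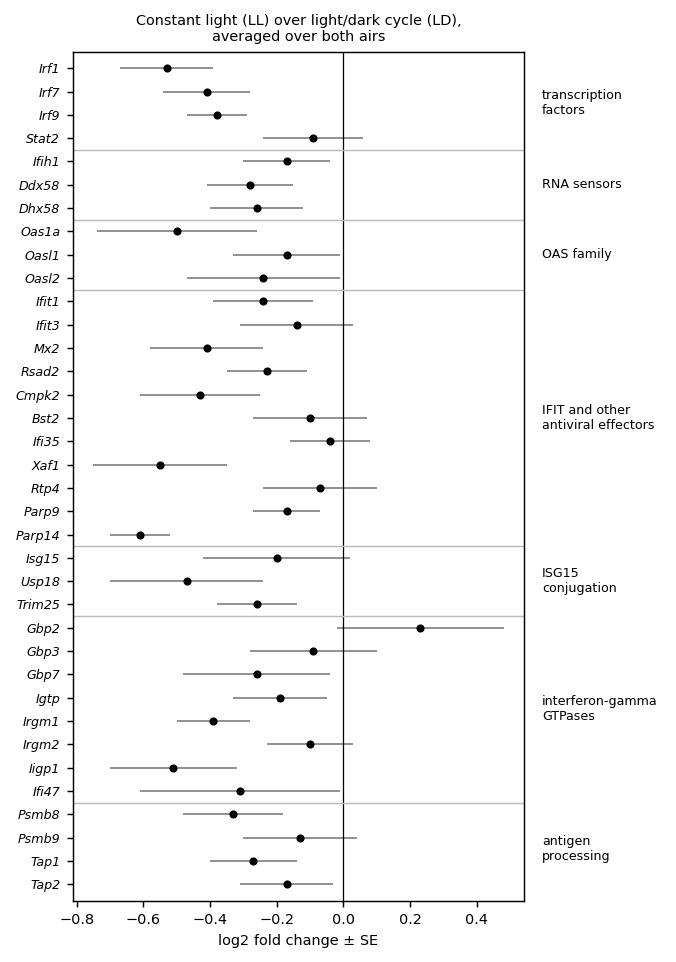
Log2 fold changes, with SE as bars, of the 36 tested interferon genes for constant light against the light/dark cycle averaged over both airs, with genes in rows grouped by role. Of the 36 points 35 lie below 0, led by Parp14 at -0.61, and no gene passed the edgeR test after adjustment.

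Within filtered air, 33 of the 36 interferon genes had a negative log2 fold change for LL-FA against LD-FA (91.7%), against 49.9% of all genes, with a median of -0.28, which was -0.18 without LL-FA 1. The 3 others were Irgm2, Stat2 and Trim25, at 0.03, 0.13 and 0.03. No gene, of the 36 or of all tested (0.0%), passed the edgeR test. DESeq2 called none of the 36, against 0.38% of all genes, and limma none. The unadjusted edgeR p was under 0.05 for 4 of the 36 (11.1%), all lower in LL-FA. Of all genes 2.74% had such a p in either direction, and 175 of 11316 had it and were lower. The 4 were Parp14 (log2 fold change -0.51 ± 0.12), Usp18 (-0.94 ± 0.33), Xaf1 (-0.77 ± 0.28) and Cmpk2 (-0.6 ± 0.25), each with an edgeR adjusted p of 1.0, as for Irgm1 (-0.33 ± 0.15). Without LD-FA 1 the value of Cmpk2 was -0.37.

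Usp18, the protease that removes ISG15 from proteins and dampens signalling at the type I receptor, had 1.46 and 1.54 FPKM in LL-FA, against 3.16 and 2.64 in LD-FA. Xaf1, a proapoptotic interferon target, had 1.41 and 2.14 FPKM in LL-FA, against 4.14 and 2.91 in LD-FA. Cmpk2, a mitochondrial nucleotide kinase, had 1.59 and 1.33 FPKM in LL-FA, against 2.64 and 1.78 in LD-FA. In these 3 genes both LL-FA libraries were below both LD-FA libraries, and LD-FA 1 was the highest of all 8 libraries. In PM2.5 the same genes stood at 1.37 and 2.38 FPKM in LL-PM2.5 against 2.32 and 1.56 in LD-PM2.5 (Usp18), 2.0 and 2.29 against 2.83 and 2.23 (Xaf1), and 1.11 and 1.36 against 1.83 and 1.32 (Cmpk2), with overlap in each.

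Within PM2.5, 31 of the 36 had a negative log2 fold change for LL-PM2.5 against LD-PM2.5 (86.1%), against 48.8% of all genes, and the median was -0.24. The 5 others were Gbp2 (0.56), Ifi35 (0.07), Ifih1 (0.02), Isg15 (0.16) and Rtp4 (0.02). The edgeR test called none of the 36 and none of all genes (0.0%), and limma called none of the 36. An unadjusted edgeR p under 0.05 was found for 7 of the 36 (19.4%), all lower in LL-PM2.5. Of all genes 9.23% had such a p in either direction, and 643 of 11316 had it and were lower. DESeq2 called 2 of the 36, against 1.23% of all genes, namely Irf1 (adjusted p = 0.00348) and Parp14 (adjusted p = 0.00615). In the edgeR fit the log2 fold changes were -0.95 ± 0.2 for Irf1 and -0.7 ± 0.12 for Parp14 (adjusted p = 0.366 for both), -0.52 ± 0.13 for Irf9 (0.401), -0.55 ± 0.16 for Trim25 (0.486) and -0.45 ± 0.15 for Irgm1 (0.495). The count in this comparison rested on single libraries. Without LD-PM2.5 1 the share of negative fold changes was 52.8% and the median -0.06, and without LL-PM2.5 1 they were 63.9% and -0.1. Irgm1 stood at -0.25 without LD-PM2.5 1, and Trim25 at -0.36 without LL-PM2.5 2.

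In the light/dark cycle, PM2.5 was set against filtered air, and here the interferon genes did not share a direction. Of the 36, 13 had a positive and 23 a negative log2 fold change, with a median of -0.09, against -0.01 over all genes. The median was -0.27 without LD-PM2.5 1 and 0.01 without LD-PM2.5 2. All 4 transcription factors were positive, between 0.16 and 0.98, while all 3 RNA sensors (-0.3 to -0.18) and all 4 genes of antigen processing (-0.44 to -0.06) were negative. Among the 11 tested effectors 2 were positive, and among the 8 GTPases 5 were. At an adjusted p under 0.05 the edgeR test called none of the 36 and none of all genes (0.0%). An unadjusted p under 0.05 was found for 7 of the 36 (19.4%), 4 higher and 3 lower in LD-PM2.5, against 11% of all genes. DESeq2 called 1, Irf1, against 1.33% of all genes, and limma called none.

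Irf1, on chromosome 11 (53770014 to 53778374, plus strand), had 11 and 12.7 FPKM in LL-PM2.5, 11.2 and 10.6 in LL-FA, 19.5 and 27.4 in LD-PM2.5, and 11.2 and 12.5 in LD-FA. Both LD-PM2.5 libraries stood above the other 6, which spanned a narrow range. The means were 23.4 ± 5.6 FPKM in LD-PM2.5 and 11.8 ± 0.865 in LD-FA (SD, n = 2 each), with a log2 fold change of 0.98 ± 0.2, an edgeR adjusted p of 0.416 and a DESeq2 adjusted p of 0.00302. Without any single library the log2 fold change was between 0.71 and 1.21. Under constant light the log2 fold change of Irf1 for PM2.5 was 0.13 ± 0.2. Irf1 overlaps Gm17334 on the opposite strand, and strand-specific counting is not given in the sources used here.

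Trim25, a ubiquitin ligase that activates the RNA sensor RIG-I and also acts as an ISG15 ligase, had 14.5 and 9.75 FPKM in LL-PM2.5, 13.9 and 11.1 in LL-FA, 19.2 and 17.5 in LD-PM2.5, and 11.9 and 12.5 in LD-FA. Mx2, of the dynamin-like GTPases, had 0.847 and 0.761 FPKM in LL-PM2.5, 0.578 and 0.685 in LL-FA, 1.08 and 1.35 in LD-PM2.5, and 0.78 and 0.698 in LD-FA. In both genes the LD-PM2.5 libraries were the highest pair. Log2 fold changes for LD-PM2.5 against LD-FA were 0.53 ± 0.16 for Trim25 (edgeR adjusted p = 0.427) and 0.7 ± 0.24 for Mx2 (0.438). Irf1, Mx2, Oas1a, Parp14, Stat2 and Trim25 had both LD-PM2.5 libraries above the other 6, 6 of the 36 (16.7%) against 7.97% of all genes, in a comparison chosen after the values were seen. None of the 36 had both LD-PM2.5 libraries below the other 6, against 4.08% of all genes.

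Stat2, the transactivating subunit of the type I complex, stood at 6.52 and 5.99 FPKM in LL-PM2.5, 5.83 and 5.57 in LL-FA, 8.14 and 7.64 in LD-PM2.5, and 4.08 and 6.39 in LD-FA. Oas1a, which makes the second messenger that activates RNase L, stood at 0.563 and 0.931 FPKM in LL-PM2.5, 0.574 and 0.772 in LL-FA, 1.14 and 1.19 in LD-PM2.5, and 1.03 and 0.753 in LD-FA. The margin of Oas1a over LD-FA 1 was small, and its close copies in the Oas1 cluster make the assignment of its fragments uncertain.

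**Figure D3:**
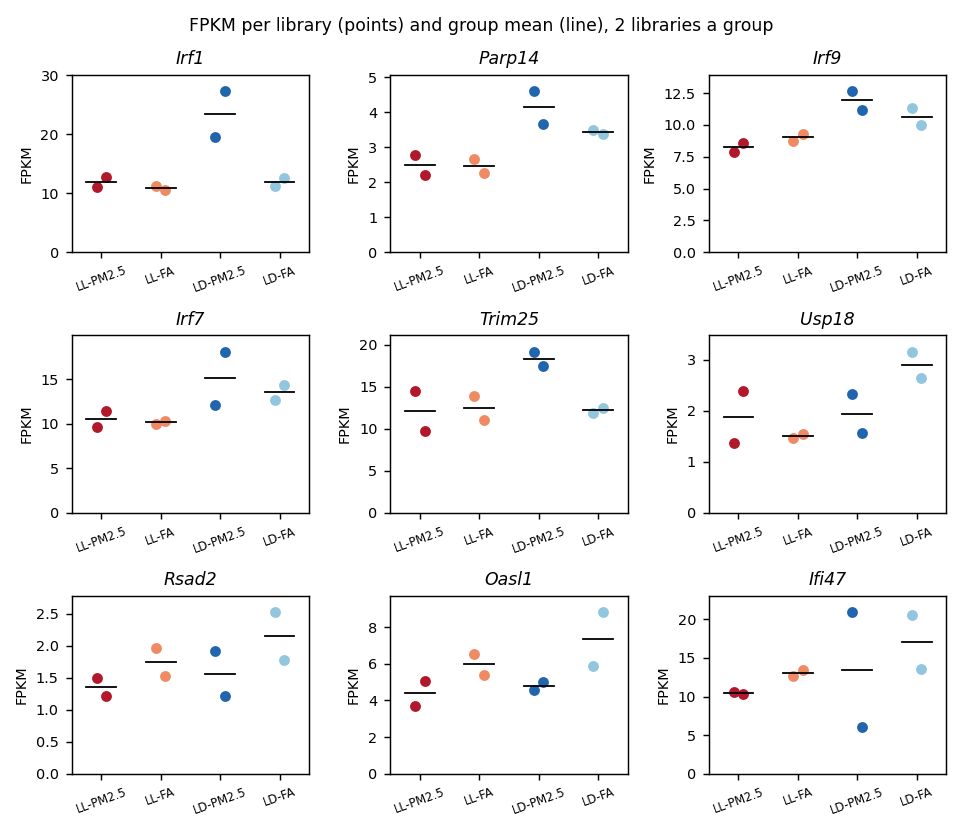
FPKM of 9 interferon genes in the 4 groups, with 1 point per library, a line at the group mean and an FPKM axis from 0 in each panel. The pair of LD-PM2.5 points of Irf1, at 19.5 and 27.4 FPKM, stands above its other points, while Parp14 and Irf9 are lower in both constant-light groups than in both light/dark groups.

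Among the 11 tested effectors 9 had a negative log2 fold change for LD-PM2.5 against LD-FA, none of which passed the edgeR, DESeq2 or limma test. Rsad2 (viperin, which makes a chain-terminating nucleotide) had 1.49 and 1.22 FPKM in LL-PM2.5, 1.96 and 1.52 in LL-FA, 1.92 and 1.21 in LD-PM2.5, and 2.52 and 1.78 in LD-FA. The first library was higher than the second in every group. Both LL-PM2.5 libraries of Rsad2 lay below both LL-FA and both LD-FA libraries, and the other pairs of groups overlapped. For LD-PM2.5 against LD-FA the log2 fold change of Rsad2 was -0.55 ± 0.17 (edgeR adjusted p = 0.427). Ifi35, a leucine zipper protein that binds NMI, had 13.3 and 14.4 FPKM in LL-PM2.5, 14.3 and 18.9 in LL-FA, 14.3 and 12.3 in LD-PM2.5, and 20.1 and 17.7 in LD-FA. Both LD-PM2.5 libraries of Ifi35 lay below both LD-FA libraries, and its log2 fold change was -0.5 ± 0.17 (edgeR adjusted p = 0.438).

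Under constant light, PM2.5 against filtered air gave 18 positive and 18 negative log2 fold changes among the 36. Their median of -0.01 ran from -0.12 without LL-PM2.5 2 to 0.1 without LL-PM2.5 1. The SE of a single gene had a median of 0.19, which does not measure the spread of the list's median. The edgeR test called none of them and none of all genes (0.0%). No interferon gene had an unadjusted p under 0.05, against 4.83% of all genes, and DESeq2 called none of them, against 0.513% of all genes, and limma none. The genes of smallest p were Oasl1 (log2 fold change -0.48 ± 0.23), Rsad2 (-0.33 ± 0.17), Psmb9 (-0.43 ± 0.23), Ifi35 (-0.28 ± 0.17) and Irgm1 (-0.25 ± 0.15), all with an edgeR adjusted p of 0.989. Without any single library Rsad2 lay between -0.41 and -0.25 and Irgm1 between -0.35 and -0.17. The values of Oasl1, Psmb9 and Ifi35 rested on single libraries. Without LL-FA 1 the values were -0.19 for Oasl1, -0.69 for Psmb9 and -0.43 for Ifi35, and without LL-FA 2 they were -0.13 for Psmb9 and -0.12 for Ifi35.

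Averaged over both lights, PM2.5 against filtered air gave 15 positive and 21 negative values among the 36, and a median of -0.07, which changed sign without LL-FA 2 (0.05) or LL-PM2.5 1 (0.04). The edgeR test called 2 of all genes tested (0.0177%), neither of them one of the 36. At an unadjusted p under 0.05 there were 7 of the 36 (19.4%), 3 higher and 4 lower in PM2.5, against 10% of all genes. DESeq2 called Irf1 (adjusted p = 0.0365), against 1.42% of all genes, and limma called none. The edgeR log2 fold changes of smallest p were 0.56 ± 0.14 for Irf1 (adjusted p = 0.396), -0.44 ± 0.12 for Rsad2 (0.407), -0.39 ± 0.12 for Ifi35 (0.414), -0.53 ± 0.17 for Oasl1 (0.421) and 0.52 ± 0.17 for Mx2 (0.43).

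Oasl1, which restrains translation of Irf7, had 3.72 and 5.07 FPKM in LL-PM2.5 and 4.57 and 5.03 in LD-PM2.5, against 6.54 and 5.39 in LL-FA and 5.86 and 8.8 in LD-FA. It was the 1 gene of the 36 whose PM2.5 libraries all lay below all filtered-air libraries (2.78%), against 1.81% of all genes. None of the 36 had all PM2.5 libraries above all filtered-air libraries, against 1.59% of all genes. Psmb9, an inducible subunit of the immunoproteasome, had 7.23 and 8.74 FPKM in LL-PM2.5 and 10.1 and 7.57 in LD-PM2.5, against 8.27 and 13.3 in LL-FA and 12.3 and 12 in LD-FA. The groups of Psmb9 overlapped through the first LL-FA library. Psmb9 and Tap1 lie on opposite strands and overlap, and Oasl1 overlaps an antisense gene.

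**Figure D4:**
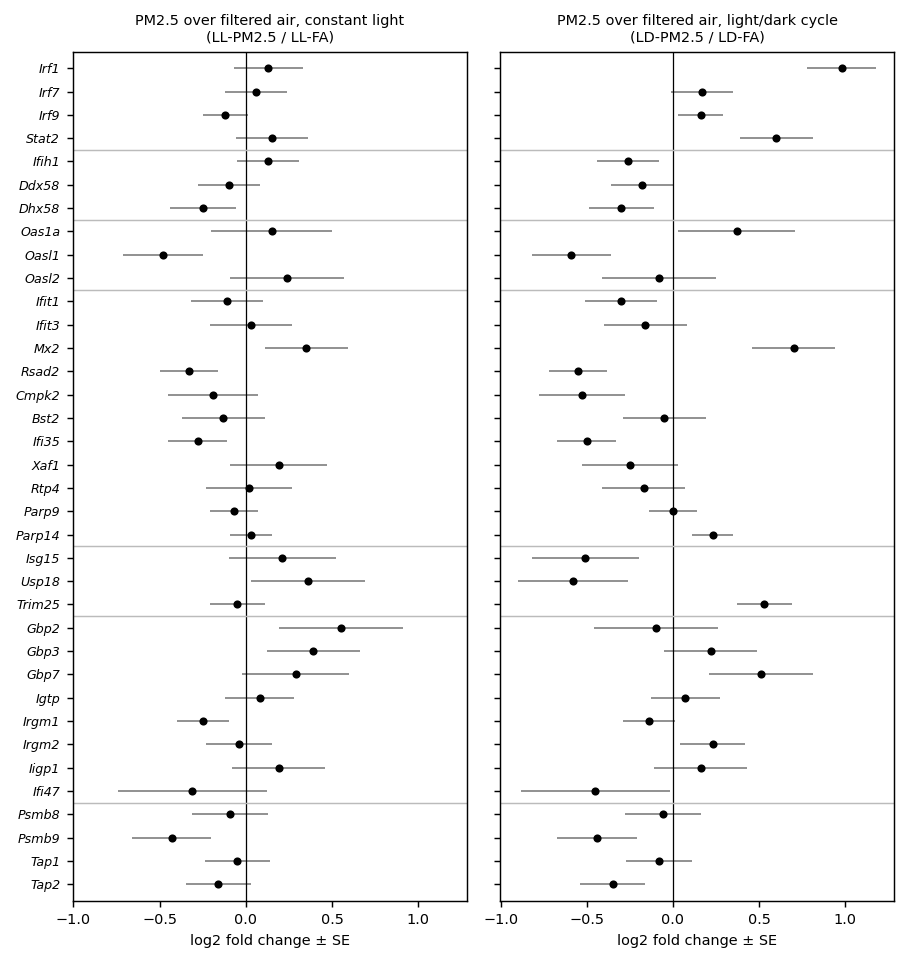
Log2 fold changes, with SE as bars, of the 36 tested interferon genes for PM2.5 against filtered air under constant light (left) and in the light/dark cycle (right), with genes in the same rows. In the right panel Irf1 is farthest from 0, at 0.98, while in the left panel it stands at 0.13, and the genes lie on both sides of 0 in both panels.

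The interaction asks whether the PM2.5 difference itself differs between constant light and the light/dark cycle. For Irf1 it was -0.85 ± 0.28 on the log2 scale with an edgeR adjusted p of 0.843, so the difference between 0.13 under constant light and 0.98 in the light/dark cycle did not pass. Trim25 had an interaction of -0.58 ± 0.23, Usp18 of 0.94 ± 0.46, Isg15 of 0.72 ± 0.44 and Irf9 of -0.29 ± 0.18, each with the same adjusted p. The value of Usp18 was 0.41 without LL-PM2.5 2, and that of Isg15 ran from 0.39 without LD-PM2.5 2 and 0.44 without LD-FA 1 to 1.15 without LD-PM2.5 1. No interferon gene, and none of all genes (0.0%), passed the edgeR test. Irf1 and Trim25 were the 2 of 36 (5.56%) with an unadjusted p under 0.05, against 4.88% of all genes. DESeq2 called none of the 36, against 0.292% of all genes, and limma none.

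Isg15, the ubiquitin-like protein conjugated to other proteins after interferon, stood at 5.95 and 8.66 FPKM in LL-PM2.5, 5.06 and 7.44 in LL-FA, 7.59 and 5.12 in LD-PM2.5, and 10.6 and 8.04 in LD-FA. Both LL-FA and both LD-PM2.5 libraries of Isg15 lay below both LD-FA libraries, and the other pairs of groups overlapped.

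Both exposures together, LL-PM2.5 against LD-FA, gave 30 negative values of 36 (83.3%), against 49.1% of all genes, and a median of -0.33. The median was -0.19 without LL-PM2.5 1. With edgeR, 0 of the 36 and none of all genes (0.0%) passed. At an unadjusted p under 0.05 there were 10 of the 36 (27.8%), all lower in LL-PM2.5. Of all genes 6.71% had such a p in either direction, and 419 of 11316 had it and were lower. DESeq2 called none of the 36, against 0.84% of all genes, and limma none. The leading log2 fold changes were -0.48 ± 0.12 for Parp14 (edgeR adjusted p = 0.494), -0.66 ± 0.17 for Rsad2 (0.524), -0.59 ± 0.15 for Irgm1 (0.524), -0.79 ± 0.25 for Cmpk2 (0.654) and -0.7 ± 0.23 for Oasl1 (0.676), the last at -0.45 without LD-FA 2. This comparison shares LL-PM2.5 or LD-FA with each of the other pairwise comparisons, and LD-FA also serves both LL-FA and LD-PM2.5, so their values are not independent.

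The remaining genes are given by role. Of the RNA sensors, Ifih1 (MDA5, for long double-stranded RNA) ranged from 4.38 to 7.19 FPKM, Ddx58 (RIG-I, for RNA with a triphosphate end) from 3.61 to 5.71, and Dhx58 (LGP2, their regulator) from 2.53 to 4.22. In each of the 3 sensors the highest library was a light/dark one. Of the effectors, Ifit1 and Ifit3, which bind viral RNA and block its translation, ranged from 1.21 to 2.26 and from 2.5 to 3.74 FPKM, and both were highest in LD-FA 1. Ifit3 has a near-identical copy, Ifit3b, so its level is uncertain. Parp9, which acts with the ubiquitin ligase Dtx3l and overlaps it, ranged from 10.5 to 16.5 FPKM, and Rtp4 from 4.66 to 7.7. The OAS-like gene Oasl2 ranged from 0.629 to 1.28 FPKM.

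Among the GTPases, Ifi47 varied most, with 10.6 and 10.3 FPKM in LL-PM2.5, 12.7 and 13.5 in LL-FA, 20.9 and 6.0 in LD-PM2.5, and 20.6 and 13.6 in LD-FA. The LD-PM2.5 pair held both its highest and its lowest library. Gbp3 ranged from 1.12 to 1.82 FPKM, Gbp7 from 0.731 to 2.48, Igtp from 8.5 to 12.7 and Irgm2 from 8.75 to 14.2. Igtp and Irgm2 overlap on the same strand, and the GTPase families hold close copies, so reads can be split among them. In antigen processing, Psmb8 ranged from 13.1 to 23.5 FPKM, and the peptide transporter subunits Tap1 and Tap2 from 4.52 to 7.5 and from 5.2 to 8.66. The highest library of these 3 was an LD-FA one, while the fourth gene, Psmb9, was highest in LL-FA 2.

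By library, 16 of the 36 interferon genes had their highest FPKM in LD-PM2.5 1 and 11 in LD-FA 1, against 18.2% and 14.9% of all genes tested. The lowest FPKM was in LL-PM2.5 1 for 11 of the 36 and in LL-PM2.5 2 for 8, against 7.26% and 24.9% of all genes. The paired library LD-PM2.5 2 was the lowest for 8 of the 36 and the highest for 4, so the pair of LD-PM2.5 libraries stood apart in these genes. Over both airs the LL libraries held the highest value of 3 genes and the lowest of 27, against 46.2% and 56.8% of all genes. The LD libraries held the highest of 33 and the lowest of 9, against 53.8% and 43.2%. Without LD-PM2.5 1 the share of the 36 with a negative fold change for LL against LD was 75.0% and the median -0.15, and without any other single library the share was higher.

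**Figure D5:**
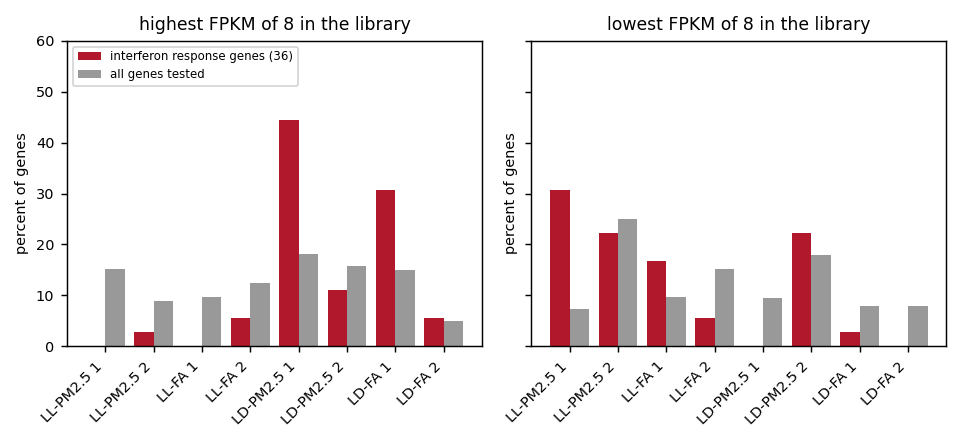
Percent of the 36 tested interferon genes (red) and of all 11316 genes tested (grey) whose highest (left) and lowest (right) FPKM of the 8 libraries falls in each library. LD-PM2.5 1 and LD-FA 1 together hold the highest value of 27 of the 36 interferon genes, and neither LL-PM2.5 1 nor LL-FA 1 holds the highest value of any.

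In bulk liver, fewer cells of a type and less RNA per cell cannot be told apart, so markers of other cells are given beside these values. The summed FPKM of 9 Kupffer cell and macrophage markers was 215 and 254 in LL-PM2.5, 181 and 260 in LL-FA, 260 and 228 in LD-PM2.5, and 302 and 258 in LD-FA. It spanned 181 to 260 over the LL libraries and 228 to 302 over the LD libraries, with overlap. In the light comparison 7 of the 9 had a negative log2 fold change, with a median of -0.17 over the 9, beside -0.25 for the 36 interferon genes. The 6 markers of B and plasma cells summed to 8.1 to 12.6 FPKM over LL and 10.2 to 28.2 over LD, highest in LD-FA 1. Ighm among them had every LL library below every LD library, with 8.11 and 8.52 FPKM in LL-PM2.5 and 5.72 and 8.03 in LL-FA, against 11.6 and 8.58 in LD-PM2.5 and 21.6 and 17.3 in LD-FA, and a log2 fold change of -0.87 ± 0.14 (edgeR adjusted p = 0.231). Markers of T and NK cells summed to 1.61 to 4.03 FPKM over LL and 1.32 to 2.78 over LD. The 5 markers of monocytes and neutrophils summed to 4.57 and 4.55 FPKM in LL-PM2.5, 6.71 and 4.74 in LL-FA, 8.25 and 13.6 in LD-PM2.5, and 7.06 and 4.55 in LD-FA. S100a8 and S100a9, the 2 of them that were tested, had both LD-PM2.5 libraries above the other 6, as did 7.97% of all genes. For S100a9 the lower LD-PM2.5 library stood at 3.07 FPKM, against 2.92 in LD-FA 1. Of the markers below the filter, Csf3r had the same order, while Ly6c2 and Ccr2 did not. The log2 fold changes of S100a8 and S100a9 were 1.14 ± 0.44 and 1.02 ± 0.43 for LD-PM2.5 against LD-FA (edgeR adjusted p = 0.438 and 0.454), and -0.82 ± 0.32 and -0.83 ± 0.31 for LL against LD (0.86 and 0.842). Sinusoidal endothelium summed to 60.4 to 74.7 over LL and 69.1 to 74.1 over LD. Markers of plasmacytoid dendritic cells, the main producers of type I interferon, summed to at most 0.615 FPKM, with Siglech at 0.184 or less in every library. Erythroid markers summed to 126 to 221 FPKM over LL and 107 to 227 over LD. All 5 had a negative log2 fold change for LD-PM2.5 against LD-FA, with Hba-a1 at -1.73 ± 0.31 (edgeR adjusted p = 0.382). The part of these cells in the light and PM2.5 differences was not tested.

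The 5 hepatocyte markers used, as a check of the labelled tissue, summed to 16973 to 21116 FPKM in every library. Some libraries also held transcripts typical of other tissues. The 8 pancreatic acinar markers summed to 3433 FPKM in LD-FA 1, 336 in LL-PM2.5 2 and 122 in LD-PM2.5 1, against 17.8 to 34.7 in the other 5 libraries, where Cela1 made up most of the sum. The skeletal muscle markers summed to 458 in LL-FA 1 and 238 in LD-FA 1, against 0.1 to 25.7 in the others. Without LD-FA 1 and LL-FA 1 together, 83.3% of the 36 interferon genes had a negative fold change for LL against LD and the median was -0.22. Without the 3 libraries richest in acinar markers, left out together after the data were seen, the share was 91.7% and the median -0.19.

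The genes of the interferon pathway outside the 41 were counted from lists chosen for this account. Of 8 interferon genes none reached the filter, 7 were at or below 0.1 FPKM in every library, and Ifng, the gene of interferon-gamma, was highest in LL-PM2.5, at 0.106 and 0.0973 FPKM, levels too low to be compared. Of 17 genes for receptors and signalling 15 were tested, of 11 for sensing of nucleic acids 8, of 30 other interferon-induced genes 25, and of 10 for class I presentation 10. For LL against LD over both airs the counts of negative fold changes were 11 of 15 (median -0.03), 8 of 8 (-0.17), 21 of 25 (-0.22) and 8 of 10 (-0.13), beside 35 of 36 among the interferon response genes. None of these passed the edgeR test.

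Ifitm3, a membrane protein that blocks viral entry, stood at 401 and 444 FPKM in LL-PM2.5 and 409 and 440 in LL-FA, against 540 and 500 in LD-PM2.5 and 709 and 554 in LD-FA. All LL libraries of Ifitm3 were below all LD libraries, and its log2 fold change was -0.41 ± 0.11 (edgeR adjusted p = 0.611). At an unadjusted p under 0.05, 6 of the 25 other interferon-induced genes and 2 of the 15 receptor and signalling genes were lower in LL, and none of the sensing or class I genes. The pair of smallest p in each list comprised, beside Ifitm3, Zc3hav1 (log2 fold change -0.25 ± 0.09), Irf5 (-0.42 ± 0.12), Ifngr2 (-0.2 ± 0.09), Myd88 (-0.23 ± 0.11), Tmem173 (STING, -0.3 ± 0.19), Erap1 (-0.26 ± 0.11) and H2-D1 (-0.2 ± 0.1). Their edgeR adjusted p-values lay between 0.665 and 0.897.

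For PM2.5 against filtered air over both lights, 11 of 15 receptor and signalling genes and 7 of 8 sensing genes were positive, against 14 of 25 other interferon-induced genes and 4 of 10 class I genes. The pairs of smallest p in the 4 lists were 0.43 ± 0.13 for Ifi203 and -0.3 ± 0.11 for Nmi, 0.3 ± 0.12 for Irf2 and 0.23 ± 0.1 for Ifnar1, 0.35 ± 0.14 for Ticam1 and 0.24 ± 0.11 for Mavs, and 0.25 ± 0.1 for H2-Q4 and -0.22 ± 0.12 for Psme2. Their edgeR adjusted p-values lay between 0.414 and 0.569, and none of these lists had a call.

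The printed motifs were also set beside the fold changes, as a description with no test. Genes without a promoter sequence, Parp14 among them, are not part of these medians. For LD-PM2.5 against LD-FA the 8 tested genes with a GAS match had a median log2 fold change of 0.15 and the 20 without one -0.17. For LL against LD over both airs the medians were -0.22 and -0.24. For an ISRE match the medians were -0.1 in the 15 genes with one and -0.08 in the 13 without for LD-PM2.5 against LD-FA, and -0.19 and -0.31 for LL against LD.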

How the data were processed

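RNA of snap-frozen liver was prepared with the RNeasy Micro kit and sequenced by standard Illumina preparation, per the labels. Per the submitters' processing notes, the tools were STAR, Cufflinks and Cuffdiff on build mm10, with versions, options and strandedness not given in the sources used here. In the deposited table stand, per the file headers, an estimated count of fragments and the authors' FPKM for each gene and library. Of fragment values above 0, 97.4% lay within 0.01 of a whole number, and all were rounded for the tests. Left out were 47 genes whose status in some library said that no estimate was made, none of them among the 41, and entries sharing a symbol were added.

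The edgeR quasi-likelihood test (edgeR 4.0.16, R 4.3.3, TMM scaling) was fitted to all 8 libraries with a mean for each of the 4 groups, leaving 4 residual degrees of freedom, over the 11316 genes that reached 1 FPKM in 2 or more libraries. P-values were two-sided and adjusted by Benjamini-Hochberg over all genes, with a threshold of 0.05. An SE is the size of the log2 fold change over the square root of F. Its median was 0.19 for pairs of groups, 0.13 for averages and 0.26 for the interaction, and depth ran from 22215000 to 31819000 fragments. Replicates differed by more than sampling noise in every group (chi-square per degree of freedom of 33.5 to 66.8).

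The members and lists were chosen with earlier results of these data known. Fold changes are named for the 5 genes of smallest p per comparison, with FPKM also for the 3 of highest mean, and other genes named after seeing values are said to be so or are given by FPKM. Alternatives, 17 in number, included DESeq2 1.42.0, limma 3.58.1 on log2(FPKM + 1) and log2(FPKM + 0.1), other filters and scaling, a replicate block and leaving out each library. The edgeR step was tested on simulated data in which 200 genes were changed alike in all PM2.5 libraries, by more than any interferon gene here. Only PM2.5 against filtered air over both lights was examined. This check does not tell how often smaller changes, or changes between pairs of groups, would be called. Positions are from GENCODE vM21 on GRCm38, where 20 of the 41 genes overlap another gene. Python 3.11.15, pandas 2.3.3 and numpy 2.4.6 were used.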

Additional observations from a re-analysis of the deposited data

How the results depend on the processing

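The fold changes named for the 5 genes per comparison kept their sign under each of the 17 alternatives that gave them a value, of which 1 was added after seeing the data. Members under 5 FPKM have no value under the stricter filter, which tested 22 of the 36. With the edgeR filter on low genes removed, 23030 genes were tested, all 41 interferon genes among them, and more calls were made. For LD-PM2.5 against LD-FA the call was Irf1 (1 of 41, against 647 of 23030). For LL-PM2.5 against LD-PM2.5 the calls were Irf1 and Parp14 (2 of 41, against 358 of 23030). For LL-PM2.5 against LD-FA the call was Oasl1 (1 of 41, against 486 of 23030). PM2.5 against FA over both lights had Irf1 and Oasl1 (2 of 41, against 696 of 23030). LL against LD over both airs had Iigp1, Irf1 and Parp14 (3 of 41, against 291 of 23030). None of the 41 was called in LL-FA against LD-FA, LL-PM2.5 against LL-FA or the interaction, against 201, 476 and 239 of all genes. In the main test the calls over all genes were 0, or 2 for PM2.5 over both lights. DESeq2 called 1 of the 36 for LD-PM2.5 against LD-FA (1.33% of all genes) and 2 for LL-PM2.5 against LD-PM2.5 (1.23%). It called 1 for PM2.5 over both lights (1.42% of all genes) and 1 for LL over both airs (0.813%). The cause of these added calls was not tested. Leaving out 1 library at a time, the share of the 36 with a negative fold change for LL-PM2.5 against LD-PM2.5 ran from 52.8% (without LD-PM2.5 1) to 97.2%, and for LL against LD over both airs from 75.0% (also without LD-PM2.5 1) to 100%. The medians of the 36 ran from -0.3 to -0.15 for LL against LD, from -0.27 to 0.01 for LD-PM2.5 against LD-FA, from -0.12 to 0.1 for LL-PM2.5 against LL-FA, from -0.13 to 0.05 for PM2.5 over both lights and from -0.08 to 0.24 for the interaction, so the last 4 of these medians had no stable sign. No pairing by replicate number was evident, as same-numbered deviations correlated between -0.585 and 0.334. With 2 libraries a group these correlations cannot exclude a batch shared by same-numbered libraries. With the replicate block the median for LL against LD was -0.24, and 0 of the 36 passed in each of the 8 comparisons. With 2 libraries a group, differences near the SE of 0.19 could not be resolved, and differences of several SE did not pass either. Irf1, at 0.98 ± 0.2 for LD-PM2.5 against LD-FA, had an edgeR adjusted p of 0.416. A gene without a call is therefore not shown to be unchanged.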
